A study of Homo sapiens with 6 samples.

Results

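The genes described here encode 32 carriers that move amino acids across the plasma membrane or the lysosomal membrane, from the SLC1, SLC3, SLC6, SLC7, SLC36, SLC38 and SLC43 families. They were chosen by gene symbol, and all 32 were found among the 20263 genes of the deposited tables. The deposited tables hold RNA-seq values for total RNA of cells labelled LNCaP, an established human prostate cancer line described as hormone-dependent. By the sample labels, the control group is 3 libraries with an empty vector, and the other group is 3 libraries with a LINC01518 overexpression vector, LINC01518 being a long non-coding RNA. The series' design text speaks of transfection and names MEG3 as the insert. The groups are called here as the sample labels call them, neither RNA was analysed here, and the promoter of the vector is not given in the sources used here. Nothing in the labels ties replicates to separate cultures, and the p-values therefore rest on library-to-library spread that could be purely technical.

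Amino acid carriers supply protein synthesis and set the amino acid pools that the cell senses. Many light chains of the SLC7 family reach the cell surface only when bound by a disulfide bridge to a heavy chain of the SLC3 family, so SLC3A2 (CD98) serves leucine uptake through SLC7A5 and cystine uptake through SLC7A11. When amino acids run short or the endoplasmic reticulum is stressed, the factor ATF4 induces several carrier genes. Lysosomal carriers such as SLC38A9 report the amino acid content of the lysosome to the kinase complex mTORC1. In prostate cancer, the leucine carriers SLC7A5 and SLC43A1 and the glutamine carrier SLC1A5 have been studied as routes of nutrient supply.

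Total counts per library lay between 38161544 and 42553688, so that a gene with 0 counts could have a level of up to 3 counts, for counting error only. Levels are given as CPM, counts scaled to library size, and those 3 counts equal 0.0705 to 0.0786 CPM. Of 15 luminal prostate and androgen-induced markers, 6 were at 0 throughout (FOLH1, TRPM8, TMPRSS2 and the kallikreins KLK2, KLK3 and KLK4), so several defining markers of the labelled line were absent. The summed level of the 15 was 2357 to 2600 CPM with empty vector and 2740 to 2907 CPM with overexpression. KRT8 (1323 to 1431 and 1622 to 1700 CPM) and KRT18 (937 to 1079 and 1037 to 1116 CPM) made up most of it. The summed level of 8 fibroblast markers was 112 to 123 CPM with empty vector and 153 to 157 CPM with overexpression. Of the 8, 4 were at or under 3 counts in every library, with FAP, LUM and PDGFRA at 0. Nearly all of the sum was COL1A1 (80.5 to 87.5 and 112 to 114 CPM) and PDGFRB (28 to 31 and 35 to 38 CPM). COL3A1 was also higher with overexpression and apart, at 0.142 to 0.467 and 0.805 to 1.36 CPM. DCN overlapped between the groups, at 3.5 to 4.3 and 4.0 to 4.5 CPM. With 4 of the 8 at or under 3 counts, the sum does not stand for the list as a whole. Of 8 immune markers 5 were at 0 in all libraries, and their sum was 3.14 to 3.17 CPM with empty vector and 2.65 to 3.55 CPM with overexpression. Of 6 endothelial markers KDR was at 0, and their sum was 9.14 to 9.76 and 7.64 to 10.1 CPM. The part of the differences in the prostate and fibroblast marker sums in the results below was not tested. In such bulk samples, fewer cells of a type and less RNA per cell cannot be told apart.

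In the deposited TPM, which are scaled to gene length and so allow levels of different genes to be set side by side, the carriers ranged from undetected to 639.5 TPM in a library. With empty vector, 7 members had a mean above 100 TPM, 14 lay between 10 and 100 TPM, 4 between 1 and 10 TPM and 7 below 1 TPM. SLC7A5 had the highest mean level at 513 ± 214 TPM (SD, n = 3), but its libraries lay at 639.5, 635 and 266 TPM and overlapped those of SLC3A2, next at 415 ± 13.9 TPM (SD, n = 3). SLC43A3, a nucleobase carrier grouped with the amino acid carriers by sequence, had 329 ± 15.9 TPM and SLC1A5 had 314 ± 28.2 TPM (SD, n = 3 each), and these overlapped each other. SLC38A2, SLC38A1 and SLC38A5, sodium-coupled carriers of small neutral amino acids, followed at 174, 155 and 149 TPM with no gap between neighbours. With overexpression the order at the top was SLC3A2 (333 TPM), SLC43A3 (331 TPM), SLC1A5 (262 TPM) and SLC7A5 (261 TPM), where SLC3A2 overlapped SLC43A3 and SLC1A5 overlapped SLC7A5. At the low end, SLC38A4 had 0 counts in all 6 libraries, SLC1A3 had 4 counts in 1 library and 0 in the others, and SLC7A7 had 3 to 6 counts per library. These 3 genes did not pass the filter on low counts and were not tested.

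**Figure D1:**
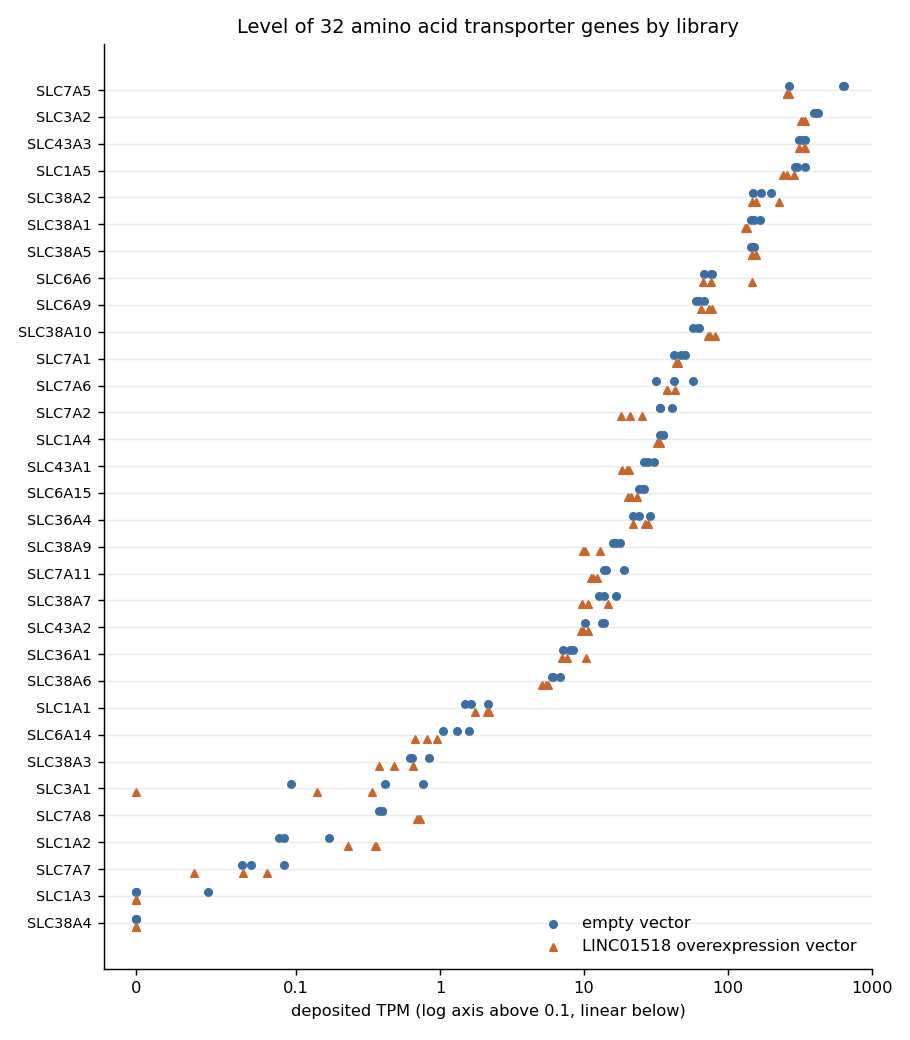
Deposited TPM of the 32 carrier genes in each of the 3 empty vector (circles) and 3 overexpression (triangles) libraries, ordered by the empty vector mean, on an axis that is logarithmic above 0.1 TPM and linear below. SLC7A5 in empty vector replicates 1 and 2 lay above all other values, at 639.5 and 635 TPM, while its other 4 libraries lay between 257 and 268 TPM.

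The comparison asked which carrier genes differed in level between the 2 vectors. Of the 29 members tested with edgeR's quasi-likelihood test, 3 fell (SLC43A1, SLC3A2 and SLC38A9) and 3 rose (SLC38A10, SLC7A8 and SLC1A2) at a Benjamini-Hochberg adjusted p under 0.05 over all genes. That is 20.7% of the members tested, where 5.60% of all 13543 genes tested were called, 3.57% higher and 2.03% lower. With library size as the only scaling, 2 members were higher and 4 lower, since SLC38A10 was lost and SLC7A2 gained. The median log2 fold change of the members was -0.21, against -0.0035 over all genes. It was nearer 0 in all 6 fits without 1 library (-0.18 to -0.13, the latter without empty vector replicate 1) and on TPM with no filter on low values (-0.11). The same held with at least 50 counts in 3 libraries (-0.16) and on TPM with a pseudocount of 1 (-0.18). With library size only it was further from 0 (-0.24). Of the log2 fold changes, 19 of the 29 were below 0, against 50.8% of all genes. At an unadjusted p under 0.05 there were 14 members, 11 lower and 3 higher, where 23.6% of all genes passed, 11.4% lower and 12.3% higher. The 3 libraries of the groups did not overlap in CPM for 14 members, 48.3% of those tested, where 31.4% of all genes had no overlap. Of these, 11 were lower, where 15.5% of all genes were, and 3 were higher, where 15.9% were. These shares describe the carriers and are no test of the list. By other settings the carriers called were 6 with RLE scaling (5.57% of all genes called), 7 with upper-quartile scaling (5.32%), 6 with library size only (5.38%), 6 with no count filter (4.85%), 7 with at least 50 counts in 3 libraries (6.30%), 7 with DESeq2 (9.72%) and 7 with limma-voom (5.52%). On TPM, limma-trend called 3 with a pseudocount of 1 (1.83%), 2 with 0.1 (1.75%) and 2 with no filter on low values (0.936%). The TPM fits with a filter on low values tested 27 members, and SLC1A2 was not among them. With the replicate number as a block, edgeR called 1 (1.71%). With empty vector replicate 1, 2 or 3 left out, 2 carriers each were called (3.02%, 2.03% and 3.35%). With overexpression replicate 1, 2 or 3 left out, the carriers called were 1, 2 and 0 (1.70%, 1.73% and 1.41%). Not all of these were among the 6. SLC7A5 was called without empty vector replicate 3, and SLC7A2 without overexpression replicate 2, each beside SLC43A1. All members tested had at least 22 counts in every library except SLC3A1, which passed the filter with 3 of its 6 libraries.

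**Figure D2:**
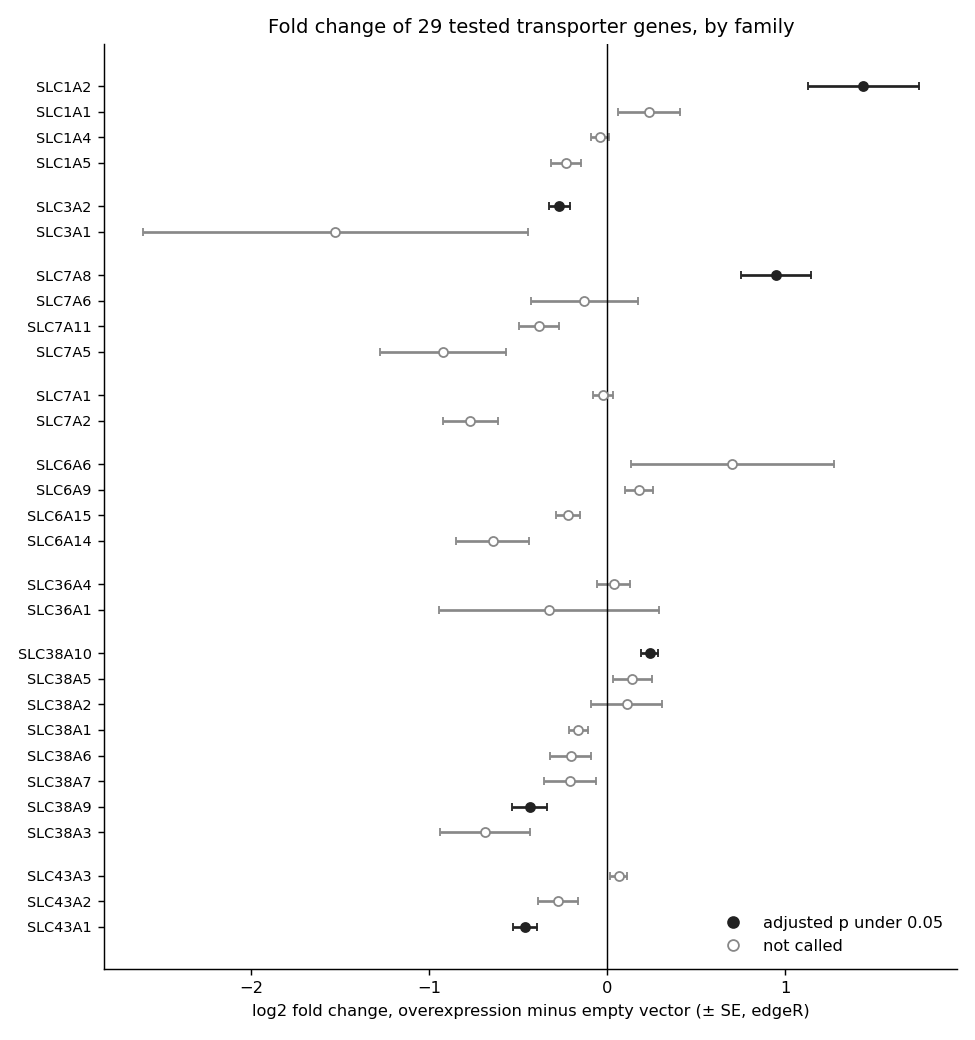
Log2 fold change, overexpression minus empty vector, of the 29 carrier genes tested, with the standard error from edgeR as bars, grouped by family and role. Filled points are the 6 genes with an adjusted p under 0.05, 3 on each side of 0, and 19 of the 29 points lie below 0.

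Of the heavy chains, SLC3A2 fell. It encodes the surface glycoprotein CD98, which carries SLC7A5, SLC7A6, SLC7A8, SLC7A11 and other light chains to the membrane. Its levels were 375, 405 and 426 CPM with empty vector and 349, 321 and 330.05 CPM with overexpression. Every overexpression library lay below every empty vector library, and the nearest pair was 375 and 349 CPM. The group means were 402 ± 25.7 and 333 ± 14.2 CPM (SD, n = 3 each), a log2 fold change of -0.27 (SE 0.0587; adjusted p = 0.0406 by edgeR), by which it fell by 17.1%. The gene lies on chromosome 11 from 62856102 to 62888875 (GRCh38, plus strand), and no other annotated exon overlaps its exons. With 1 library left out, SLC3A2 was called by edgeR without empty vector replicate 1 (adjusted p = 0.0346) and not in the other 5 fits (0.0771 to 0.128). SLC3A1, the heavy chain of the kidney and gut carrier of cystine, had 46, 27 and 6 counts with empty vector and 6, 0 and 20 with overexpression. Its groups overlapped (adjusted p = 0.452). Part of its exons overlap PREPL on the opposite strand, and 1761 of its 6541 exonic bases overlap AC013717.1 on the same strand.

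RefSeq gives 3 starts for SLC3A2. The 250 bases before the most downstream of them, which lie within the annotated gene at chr11:62881449-62881698 (GRCh38.p14, plus strand), are shown because SLC3A2 is the heavy chain that fell and because this window held a 9-letter match. Capitals mark TGACTCAGC, the sequence bound by NRF2 with small MAF proteins, whose first letters are also the AP-1 site. The same length upstream is shown for SLC43A1 (chr11:57515703-57515952, minus strand), the member with the smallest p, and for SLC7A5 (chr16:87869508-87869757, minus strand), the main partner of SLC3A2, with the E-box CACGTG, bound by MYC and related factors, in capitals. Another RefSeq window of SLC43A1, at chr11:57514860-57515159, held no CACGTG.
SLC3A2: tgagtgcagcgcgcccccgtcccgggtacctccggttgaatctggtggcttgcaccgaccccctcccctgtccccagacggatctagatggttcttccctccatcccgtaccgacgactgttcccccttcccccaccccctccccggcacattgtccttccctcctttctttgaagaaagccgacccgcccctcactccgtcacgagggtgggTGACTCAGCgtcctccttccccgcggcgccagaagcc
SLC43A1: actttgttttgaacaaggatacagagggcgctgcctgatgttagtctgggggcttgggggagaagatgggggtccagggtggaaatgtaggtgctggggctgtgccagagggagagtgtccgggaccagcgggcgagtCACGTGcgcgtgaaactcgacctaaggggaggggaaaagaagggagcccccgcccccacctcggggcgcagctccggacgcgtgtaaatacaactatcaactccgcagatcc
SLC7A5: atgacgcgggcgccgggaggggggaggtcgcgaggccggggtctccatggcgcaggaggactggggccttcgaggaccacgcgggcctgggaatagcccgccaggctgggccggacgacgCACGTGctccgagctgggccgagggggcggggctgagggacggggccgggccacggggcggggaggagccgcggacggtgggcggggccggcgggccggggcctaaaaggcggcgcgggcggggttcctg
TGACTCAGC was searched on both strands of the 300-base windows around RefSeq starts, 250 before and 50 after. SLC3A2 was the 1 member of the 24 with a window that held it, and 0.561% of all 35116 windows did. CACGTG, its own reverse complement, was in windows of 8 of the 24 members, in 8 of their 45 windows, and in 7.26% of all windows. Matches describe the sequence and say nothing of binding in these cells.

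Of the light chains, SLC7A8 rose from a low level and SLC7A5 was split within the empty vector group. SLC7A5, the large neutral amino acid carrier LAT1 that brings in leucine, had 1422, 1444 and 622 CPM with empty vector and 608, 624 and 609.8 CPM with overexpression. Empty vector replicates 1 and 2 were more than 2-fold above the other 4 libraries, and empty vector replicate 3 lay within the overexpression range. The groups therefore overlapped, and the log2 fold change of -0.92 (SE 0.354) had an edgeR adjusted p = 0.215. Without empty vector replicate 3 it was -1.22 (adjusted p = 1.06e-04), and without any other library it lay between -0.74 and -0.93 (0.384 to 0.415). The deposited TPM showed the same split, at 639.5, 635 and 266 TPM against 257, 268 and 259 TPM. Counts per TPM of SLC7A5, after scaling each library to its median gene, varied by no more than 1.01-fold between libraries. Of the 13543 genes tested, 16 (0.118%) had both of those empty vector libraries at least 1.5-fold above each of the other 4, SLC7A5 among them at 2.28-fold, a pattern looked for after its values were seen. SLC7A5 lies on chromosome 16 from 87830023 to 87869488 (minus strand).

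SLC7A8, which encodes LAT2, another carrier of neutral amino acids, had 0.83, 0.68 and 0.88 CPM with empty vector and 1.57, 1.52 and 1.51 CPM with overexpression, from 29 to 34 and 57 to 66 counts. The groups lay apart, with a 1.93-fold rise (log2 fold change 0.95, SE 0.198; adjusted p = 0.0361 by edgeR). At 0.389 and 0.71 TPM it was below the other partners of SLC3A2 that were tested, and its call was lost in all 6 fits without 1 library (adjusted p 0.0647 to 0.115). SLC7A11, the cystine and glutamate exchanger xCT, had 90.04, 69.3 and 68.6 CPM with empty vector and 62.3, 54.8 and 57.6 CPM with overexpression. All 3 overexpression libraries lay below the lowest empty vector library, but the log2 fold change of -0.38 (SE 0.114) did not pass in edgeR (adjusted p = 0.101). Without empty vector replicate 1, the highest library, it was -0.24 (adjusted p = 0.109). DESeq2 gave SLC7A11 an adjusted p = 0.0187. SLC7A6, which exchanges cationic for neutral amino acids, had 141, 97.3 and 65.5 CPM with empty vector and 89.5, 83.9 and 104.6 CPM with overexpression, with overlap (adjusted p = 0.838). Its exons share 4216 bases with genes on the opposite strand, mainly SLC7A6OS, and without a stated strand setting the reads of the pair cannot be told apart. SLC7A7, its relative of kidney and gut, was the light chain not tested.

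Within a library, the ratio of SLC7A5 to SLC3A2 in TPM was 1.603, 1.51 and 0.625 with empty vector and 0.753, 0.831 and 0.775 with overexpression. The overexpression values lay between the highest and lowest empty vector values, so the groups overlapped. For SLC7A11 the ratio was 0.0477, 0.0341 and 0.0323 with empty vector and 0.0363, 0.0347 and 0.0346 with overexpression, which also overlapped. For SLC7A8 it was 9.85e-04, 8.96e-04 and 9.35e-04 with empty vector and 0.00208, 0.00216 and 0.00217 with overexpression, with no overlap. An exact two-sided permutation test of 3 against 3 cannot go below p = 0.1, and none was run on these ratios. SLC7A5 made up 85.2% to 91.8% of the summed TPM of the 5 SLC7 light chains with empty vector and 82.4% to 84.3% with overexpression.

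**Figure D3:**
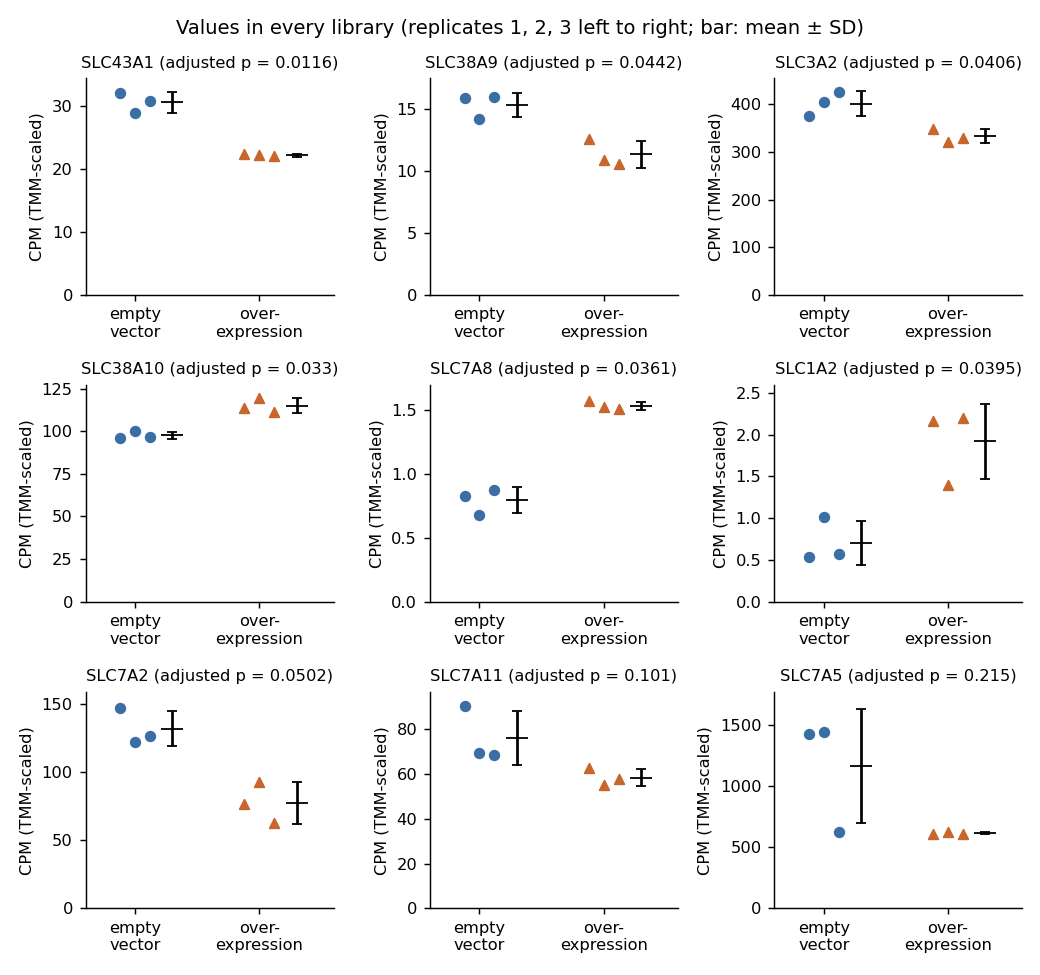
CPM, scaled by TMM, in every library for the 6 called carrier genes (upper and middle rows) and for SLC7A2, SLC7A11 and SLC7A5 (lower row), with replicates 1, 2 and 3 from left to right and the mean ± SD beside them, on axes that start at 0. The groups lie apart in 8 of the 9 panels, where 31.4% of all genes had no overlap, but 6 panels were chosen because their genes were called. In the SLC7A5 panel empty vector replicate 3 lies level with overexpression.

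The cationic carriers of the SLC7 family act without a heavy chain and bring in arginine and lysine. SLC7A2 had 147, 122 and 127 CPM with empty vector and 76.9, 93.1 and 62.6 CPM with overexpression. The groups did not overlap, and the log2 fold change of -0.77 (SE 0.156) lay just outside the threshold with an edgeR adjusted p = 0.0502. It was called by 7 of the 17 alternative fits, among them the fit without overexpression replicate 2 (adjusted p = 0.029), and in the other fits without 1 library the adjusted p was 0.0583 to 0.154. SLC7A1, the widely expressed arginine carrier, had 173 ± 11.3 and 169.6 ± 3.15 CPM (SD, n = 3 each), with overlap and an adjusted p = 0.812.

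Of the facilitative carriers of the SLC43 family, SLC43A1 fell and the other two were not called. SLC43A1, the leucine carrier LAT3, once named for its high level in prostate cancer, had 32.1, 28.8 and 30.8 CPM with empty vector and 22.4, 22.2 and 22.0 CPM with overexpression. The overexpression libraries spanned less than 1 CPM and lay below the lowest empty vector library. The means were 30.6 ± 1.64 and 22.2 ± 0.22 CPM (SD, n = 3 each), with a log2 fold change of -0.46 (SE 0.0663; adjusted p = 0.0116 by edgeR), a 1.38-fold fall. This was the smallest adjusted p among the members. The call held in 5 of the 6 fits without 1 library, and without overexpression replicate 3 the adjusted p was 0.0515. In TPM the means were 28.3 ± 2.21 and 19.7 ± 1.14. The gene lies on chromosome 11 from 57484534 to 57515786 (minus strand). SLC43A2, the related carrier LAT4, had 39.4, 39.7 and 37.6 CPM with empty vector and 32.9, 36.9 and 26.5 CPM with overexpression, apart in CPM but not in TPM (adjusted p = 0.194). SLC43A3 had 339 ± 3.73 and 354 ± 18.4 CPM (SD, n = 3 each) and overlapped (adjusted p = 0.474). Of its 4517 exonic bases, 1349 overlap AP000781.2 on the same strand.

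The sodium-coupled neutral carriers of the SLC38 family moved both ways. SLC38A9, the lysosomal carrier that senses arginine for mTORC1, fell. It had 15.9, 14.2 and 15.95 CPM with empty vector and 12.6, 10.9 and 10.6 CPM with overexpression. The groups lay apart, at a log2 fold change of -0.44 (SE 0.098; adjusted p = 0.0442 by edgeR). SLC38A10, a less studied relative, rose from 96.3, 100.2 and 96.5 CPM to 114, 119.8 and 112 CPM. The groups lay apart here too, at a log2 fold change of 0.24 (SE 0.0481; adjusted p = 0.033 by edgeR). Neither call held in any of the 6 fits without 1 library, where the adjusted p was 0.0577 to 0.137 for SLC38A9 and 0.0708 to 0.112 for SLC38A10. SLC38A9 lies on chromosome 5 from 55625845 to 55773194 (minus strand) and SLC38A10 on chromosome 17 from 81245000 to 81295547 (minus strand), where 610 bases of its exons overlap a gene on the opposite strand.

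The abundant members of the SLC38 family were not called. SLC38A1, a glutamine carrier, had 622, 567 and 561 CPM with empty vector and 528, 507 and 529.7 CPM with overexpression. Its groups lay apart, but at a log2 fold change of -0.16 (SE 0.0523) the adjusted p was 0.114. SLC38A2, the carrier of system A that cells induce when amino acids run short, had 424, 337 and 383 CPM with empty vector and 365, 338 and 532 CPM with overexpression. Overexpression replicate 3 was the highest of the 6, and the log2 fold change was 0.11 with all libraries (adjusted p = 0.786) and -0.12 without it (0.577). SLC38A5, of system N, had 95.1 ± 12.1 and 105 ± 10.96 CPM (SD, n = 3 each; adjusted p = 0.487). SLC38A7, the lysosomal glutamine exporter, had 25.5 ± 3.40 and 22.1 ± 3.89 CPM (SD, n = 3 each; adjusted p = 0.44). SLC38A6 had 4.49 to 4.98 CPM with empty vector and 3.89 to 4.41 CPM with overexpression (adjusted p = 0.32), and SLC38A3, the system N carrier of liver and brain, had 38 to 50 and 22 to 29 counts (adjusted p = 0.152).

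In the SLC1 family, the 1 call was for a gene of low level. SLC1A2, the glial glutamate carrier EAAT2, had 22, 43 and 22 counts with empty vector and 91, 55 and 83 with overexpression. Every overexpression library was above every empty vector library, with a 2.71-fold rise (log2 fold change 1.44, SE 0.31; adjusted p = 0.0395 by edgeR), but at 0.117 and 0.315 TPM it was among the lowest members. Its exons share 51 bases with a gene on the opposite strand. Its call held without empty vector replicate 2 (adjusted p = 0.0422) and in no other fit without 1 library (0.0543 to 0.12). SLC1A5, the glutamine carrier ASCT2, had 317, 291 and 337 CPM with empty vector and 299, 243 and 263 CPM with overexpression. Overexpression replicate 1 lay above the lowest empty vector library, and the log2 fold change of -0.23 (SE 0.0856) had an adjusted p = 0.16. In TPM the SLC1A5 groups did not overlap, at 292 to 346 and 241 to 289 TPM. SLC1A4, a carrier of serine and alanine, had 78.8 ± 2.93 and 76.7 ± 1.77 CPM (SD, n = 3 each; adjusted p = 0.68). SLC1A1, the neuronal and epithelial glutamate carrier, had 112 to 172 and 132 to 178 counts (adjusted p = 0.457).

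No carrier of the SLC6 or SLC36 families was called by edgeR, nor by DESeq2 or limma-voom, and 2 of the 6 tested had an unadjusted p under 0.05. Over all genes edgeR called 5.60%, and 23.6% had an unadjusted p under 0.05, so with 6 genes the count does not set these families apart. SLC6A6, the taurine carrier, had 140, 145 and 132 CPM with empty vector and 126, 422 and 129 CPM with overexpression. Overexpression replicate 2 was 2.92-fold above the next library, and 8 of the 13543 genes tested (0.0591%) were at least 2-fold above all other libraries there. The log2 fold change of SLC6A6 was 0.70 (SE 0.571, adjusted p = 0.528) and -0.12 without that library (0.318). SLC36A1, a proton-coupled lysosomal carrier, had 19.5, 6.89 and 20.1 CPM with empty vector and 7.69, 20.9 and 8.36 CPM with overexpression. The high and low values occurred in both groups (adjusted p = 0.795). In TPM the same 6 libraries of SLC36A1 had 8.04, 7.12, 8.34, 6.99, 10.3 and 7.62, with no such split. Its counts per TPM differed up to 2.55-fold between libraries, and the spread was wider than for 99.8% of 10545 genes that had 200 or more counts per library. For SLC6A6 the counts per TPM differed up to 1.71-fold, and TPM in overexpression replicate 2 was 147 against 66.9 to 78.0 in the others. The cause of these differences between counts and TPM was not tested. SLC6A6 and SLC36A1 are described in full because their values stood apart, a choice made after the values were seen.

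**Figure D4:**
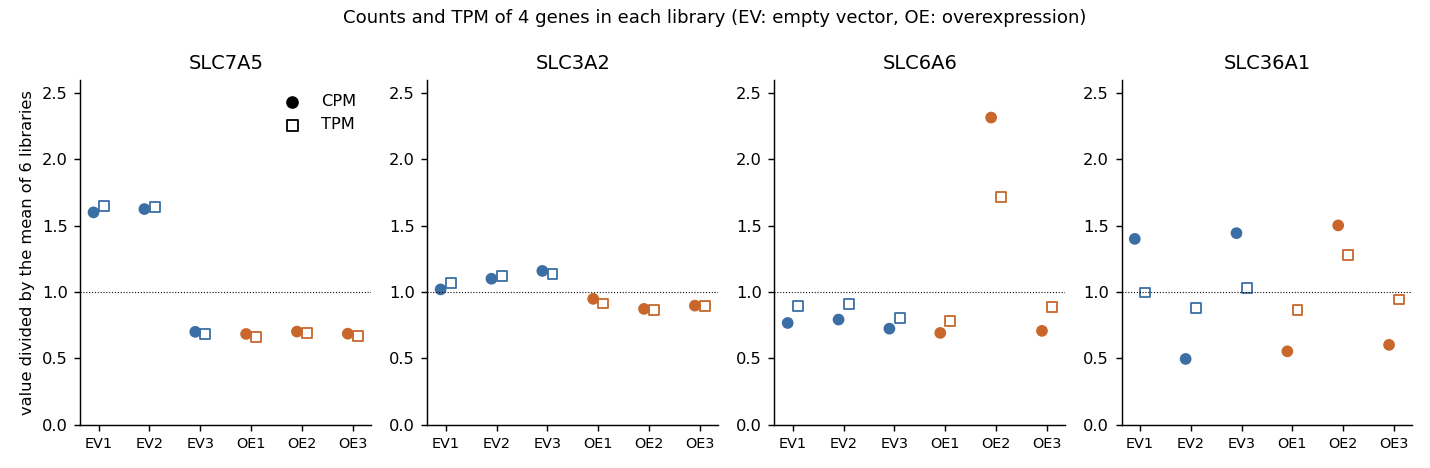
CPM (filled circles) and deposited TPM (open squares) of SLC7A5, SLC3A2, SLC6A6 and SLC36A1 in each library, divided by the mean of the 6 libraries. For SLC7A5 and SLC3A2 both units show the same pattern, while for SLC36A1 the CPM alternate between 2 levels and the TPM do not, and for SLC6A6 overexpression replicate 2 is high in both.

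The remaining members of these families were not called either. SLC6A15, a carrier of branched-chain amino acids and proline, had 57.1, 51.5 and 58.0 CPM with empty vector and 45.8, 49.6 and 47.5 CPM with overexpression. These values did not overlap (log2 fold change -0.22, adjusted p = 0.0947). SLC6A14, which carries most neutral and cationic amino acids, had 101 to 144 counts with empty vector and 66 to 87 with overexpression, also apart (log2 fold change -0.64, adjusted p = 0.11). SLC6A9, the glycine carrier GLYT1, had 80.0 ± 3.44 and 90.6 ± 9.22 CPM (SD, n = 3 each; adjusted p = 0.216). SLC36A4, a carrier of proline and tryptophan, had 43.9 ± 5.30 and 45.03 ± 2.598 CPM (SD, n = 3 each; adjusted p = 0.856).

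Grouped by known control, 8 members are carrier genes described as ATF4 targets: SLC1A4, SLC1A5, SLC3A2, SLC6A9, SLC7A1, SLC7A5, SLC7A11 and SLC38A2. Of these 8, SLC3A2 fell and 0 rose, 6 had a log2 fold change below 0, and their median was -0.14. Over all genes 2.03% were called lower and 3.57% higher, 50.8% were below 0 and the median was -0.0035. ATF4 acts with C/EBP proteins at a composite element that begins TGATGNAA. On both strands of the 300-base windows, 6 of the 24 members with a window held TGATGNAA (SLC1A3, SLC1A4, SLC1A5, SLC38A1, SLC3A2 and SLC7A1), in 6 of 45 windows, and 3.62% of all windows did. The form TGATGCAA, a subset of these matches, was in windows of SLC1A3, SLC1A4 and SLC1A5 and in 0.866% of all windows. The match in SLC1A5 (chr19:46784884-46784931, minus strand), which lies within the annotated gene (46774883 to 46788594) and before an internal start, is shown as one in an ATF4 target carrier, with the match in capitals.
SLC1A5: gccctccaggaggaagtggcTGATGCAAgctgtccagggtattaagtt
It begins 97 bases before one of 3 RefSeq starts of SLC1A5, which was not called.

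Genes that act with the carriers were counted in 5 lists, to be read against 5.60% of all genes called, 3.57% higher and 2.03% lower. Of 20 genes tested of amino acid starvation signalling and of factors that control carrier genes, 2 fell and 0 rose. CEBPG, a partner of ATF4, fell from 70.8 ± 4.01 to 54.5 ± 3.48 CPM (SD, n = 3 each; edgeR adjusted p = 0.0249), and DDIT3, the stress factor CHOP, also fell (0.049). ATF4 itself had 406 ± 14.4 and 433 ± 15.3 CPM (SD, n = 3 each; adjusted p = 0.285), MYC had 23.4 ± 1.69 and 22.0 ± 1.68 CPM (0.582), and NFE2L2, which encodes NRF2, had 50.5 ± 15.8 and 58.02 ± 16.9 CPM (0.744). Of 37 genes of amino acid sensing to mTORC1, SESN2, the leucine sensor that starvation induces, fell from 50.8 ± 0.947 to 36.9 ± 1.87 CPM, with an adjusted p = 0.0095 by edgeR. SESN3, of the same family, rose from 16.7 ± 1.45 to 22.6 ± 0.124 CPM, with an adjusted p = 0.0266 by edgeR, and RRAGA, a Rag GTPase gene, rose from 81.0 ± 4.53 to 97.0 ± 3.56 CPM, with an adjusted p = 0.0431 by edgeR. Of 9 glutamine and glutamate enzymes, ASNS, the asparagine synthetase gene, and GOT1, an aspartate transaminase gene, fell, with log2 fold changes of -0.71 and -0.27 (edgeR adjusted p = 0.00656 and 0.0341).

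Of 18 other amino acid carriers tested among 38 listed, 2 rose and 0 fell, where 3.57% of all genes were called higher and 2.03% lower. SLC25A29, a mitochondrial carrier of basic amino acids, rose from 174 ± 7.54 to 217 ± 5.97 CPM (SD, n = 3 each; edgeR adjusted p = 0.014), and MFSD12, which imports cysteine into lysosomes and melanosomes, rose from 752 ± 11.4 to 851 ± 4.66 CPM, with an adjusted p = 0.0396 by edgeR. Their median log2 fold change was 0.13, with 5 of 18 below 0, where 50.8% of all genes were. Of 13 genes of carrier trafficking and turnover, ARRDC3, an arrestin-domain adaptor for ubiquitin ligases, fell from 39.8 ± 2.71 to 30.99 ± 1.93 CPM, with an adjusted p = 0.0393 by edgeR. Of 10 genes of cystine use and glutathione, edgeR called 0, as did DESeq2 and limma-voom, where edgeR called 5.60% of all genes. In that list 4 had an unadjusted p under 0.05, where 23.6% of all genes did.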

How the data were processed

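Per the submitters' processing notes, Trimmomatic 0.36, HISAT2, featureCounts of Subread 1.5.1, DESeq and build GRCh38 were used. The deposited counts are whole numbers per gene with no normalization. The deposited TPM are scaled to gene length and library size, and the tool that made them, the annotation and the strand setting are not stated in any source at hand. Gene IDs were given symbols from a gene name table (20148 of 20263 matched) and positions from GENCODE 29, build GRCh38. All columns were assigned to samples by name. Counts were filtered with filterByExpr (minimum count of 10, minimum total of 15), scaled by TMM and fitted on all 6 libraries with a robust quasi-likelihood model in edgeR 4.0.16 (R 4.3.3), group as the only term. P-values were adjusted by Benjamini-Hochberg over all 13543 genes and called under 0.05. The SE is the log2 fold change divided by the square root of F. CPM are TMM-scaled. The fit was tested on simulated counts with the same dispersion for all genes and no library that stood apart. That test therefore says nothing of genes with such libraries, as SLC7A5 and SLC6A6. Alternatives were RLE, upper-quartile and no scaling, other filters, DESeq2 1.42.0, limma-voom and limma-trend on TPM (limma 3.58.1), leaving out each library, and the replicate number as a block. The members and lists were chosen with earlier results of these data known. Every member is accounted for. Called members, SLC3A2, SLC7A5, SLC7A11 and the 6 most abundant uncalled members were to be given in full, with up to 4 called genes of each other list. Promoter windows came from RefSeq (GRCh38.p14), where 24 of the 32 members matched. TGATGNAA was planned as a motif, and TGACTCAGC and CACGTG were chosen after the matches were seen.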

Additional observations from a re-analysis of the deposited data

How the results depend on the processing

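Against 6 of 29 carriers called (5.60% of all genes, 759 genes), RLE scaling, library size only and no count filter also called 6, and upper-quartile scaling, the stricter filter, DESeq2 and limma-voom called 7. DESeq2 called 1316 genes over all (9.72%), and gave SLC7A8 no adjusted p. Against edgeR it called 5 and not 2 of the starvation list, 5 and not 3 of the mTORC1 sensing list and 4 and not 2 of the glutamine and glutamate enzymes. With library size only, 346 genes were higher and 382 lower, against 484 and 275. On log2(TPM + 1), limma-trend called 3 of 27 carriers tested and 236 genes. On log2(TPM + 0.1) it called 2 of 27 and 225 genes, and with no filter on low values 2 of 31 and 152. That last setting gave a median carrier log2 fold change of -0.11 against -0.21. Without 1 library, 193 to 458 genes and 0 to 2 carriers were called, with a median of -0.18 to -0.13. The 0 came without overexpression replicate 3, where edgeR called 1.41% of all genes. With the replicate number as a block, edgeR called 232 genes (1.71%) and 1 carrier, SLC43A1. The labels give no pairing. Same-numbered libraries had low correlations of deviations, at 0.0367, 0.0547 and 0.0449, but each was the highest for its libraries. Whether same-numbered libraries were paired was not tested. The sign changed for 6 uncalled genes. SLC36A1 moved to 0.060 on log2(TPM + 1), with and without the filter, and to 0.066 on log2(TPM + 0.1). Without 1 library, the log2 fold change ranged from -0.36 to 0.18 for SLC7A6 and from -0.078 to 0.013 for SLC7A1 (highest without empty vector replicate 1), from -0.016 to 0.14 for SLC36A4 (lowest without empty vector replicate 2, and -0.013 without replicate 3), from -0.12 to 0.99 for SLC6A6 (lowest without overexpression replicate 2) and from -0.12 to 0.23 for SLC38A2 (lowest without overexpression replicate 3). The cause of these moves was not tested. Carriers under about 100 counts per library, SLC1A2, SLC7A8, SLC38A3 and SLC3A1, are limited by depth.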
